A study of Mus musculus with 30 samples.

Results

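The promoter sites described here are the 1422 sites, of 7613 in all (18.7%), that carry a promoter-TSS annotation in the authors' list of chromatin sites changed by doxycycline in mouse tail tendon fibroblasts. Of them, 1421 were higher with doxycycline and 1 was lower. The series examined how mechanical cues and the transcriptional co-activators Yap and Taz act on chromatin and transcription. All groups were primary fibroblasts from tail tendon, treated in medium with 0.1% FBS. The site list compares 3 libraries labelled dox_noblebb, given doxycycline at 10 ng/mL, with 3 libraries labelled nodox_noblebb, whose treatment is given as DMSO. Another 3 libraries had doxycycline with blebbistatin (10 µM, which blocks the motor activity of myosin II) and another 3 had blebbistatin without doxycycline. Separate experiments measured RNA and open chromatin (ATAC-seq) in cells given DMSO, blebbistatin at 10 µM or Y27632 at 30 µM (an inhibitor of ROCK kinases, which activate myosin), with 3 libraries per group. The labels used here do not name what doxycycline induces, and give the genotype of every group as wildtype. They describe the doxycycline libraries as genomic DNA, and ATAC-seq is the only genomic protocol they give. Time, animal age and the number of animals are not given in the sources used here, so the spread between libraries may be technical.

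A promoter is the stretch of DNA around the point where transcription of a gene starts, and at many active genes it is kept largely free of nucleosomes. Many promoters of genes used in every cell are rich in CpG dinucleotides, whereas promoters of tissue-restricted genes are more often poor in them. Yap and Taz do not bind DNA themselves. They are brought to it by TEAD factors, largely at enhancers and at some promoters, and their activity in fibroblasts rises with actomyosin tension. Established targets include Ccn1 and Thbs1, which encode secreted matricellular proteins, and Ankrd1, which encodes a nuclear ankyrin-repeat protein.

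The sequences below show the 250 bases before the annotated start, 5′ to 3′ on the gene's strand, for 6 genes. They are RefSeq promoters of build GRCm38.p6, the build called mm10 in the submitters' processing notes. Ankrd1, Ccn1, Ajuba and Axl were chosen as targets of Yap and Taz, Flacc1 for its large fold and Polr2e for its CpG-rich promoter. Capitals mark matches on either strand to GGAATG, the core bound by TEAD (CATTCC on the other strand), to TGANTCA (AP-1), GGGCGG (SP factors), CCAAT (NFY) and TATAAA (the box bound by TBP). Matches of different motifs can adjoin or overlap.
Ankrd1: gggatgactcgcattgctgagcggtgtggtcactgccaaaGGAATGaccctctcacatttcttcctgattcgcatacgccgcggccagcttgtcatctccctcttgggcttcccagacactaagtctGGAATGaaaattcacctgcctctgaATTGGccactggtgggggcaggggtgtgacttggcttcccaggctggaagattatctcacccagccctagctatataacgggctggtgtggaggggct
Ccn1: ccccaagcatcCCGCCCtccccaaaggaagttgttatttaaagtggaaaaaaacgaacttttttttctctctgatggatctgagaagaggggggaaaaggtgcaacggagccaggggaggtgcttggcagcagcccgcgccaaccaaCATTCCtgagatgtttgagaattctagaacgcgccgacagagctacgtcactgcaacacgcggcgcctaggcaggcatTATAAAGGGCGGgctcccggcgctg
Ajuba: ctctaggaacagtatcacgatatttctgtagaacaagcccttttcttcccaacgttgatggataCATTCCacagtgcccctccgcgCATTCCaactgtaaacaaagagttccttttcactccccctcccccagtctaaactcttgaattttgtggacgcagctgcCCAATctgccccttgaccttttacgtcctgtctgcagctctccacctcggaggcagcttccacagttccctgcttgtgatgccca
Axl: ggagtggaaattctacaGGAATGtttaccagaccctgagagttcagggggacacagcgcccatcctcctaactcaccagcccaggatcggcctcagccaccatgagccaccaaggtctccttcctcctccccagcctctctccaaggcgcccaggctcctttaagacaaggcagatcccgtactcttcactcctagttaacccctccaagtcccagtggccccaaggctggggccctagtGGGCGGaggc
Flacc1: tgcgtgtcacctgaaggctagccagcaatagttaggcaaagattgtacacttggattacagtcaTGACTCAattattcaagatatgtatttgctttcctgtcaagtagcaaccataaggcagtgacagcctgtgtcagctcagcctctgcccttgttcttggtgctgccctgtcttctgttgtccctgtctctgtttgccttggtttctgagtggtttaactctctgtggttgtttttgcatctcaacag
Polr2e: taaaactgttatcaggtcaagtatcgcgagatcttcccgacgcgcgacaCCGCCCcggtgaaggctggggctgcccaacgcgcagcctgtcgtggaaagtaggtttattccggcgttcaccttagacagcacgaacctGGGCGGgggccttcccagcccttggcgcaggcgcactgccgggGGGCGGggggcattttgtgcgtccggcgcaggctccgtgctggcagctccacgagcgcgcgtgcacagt

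The windows hold 2 TEAD cores in Ankrd1, at 210 to 205 and 123 to 118 bases before the start, and 2 in Ajuba, at 186 to 181 and 164 to 159. Ccn1 has 1 at 103 to 98 bases before the start. Axl has 1 at 233 to 228. Flacc1 shows an AP-1 match and no TEAD core, and Polr2e shows 3 SP matches. A match is a run of letters and not a measured binding event. The stretches are on the minus strand at chr19:36119845-36120094 (Ankrd1), chr3:145649986-145650235 (Ccn1), chr14:54577662-54577911 (Ajuba), chr7:25788734-25788983 (Axl), chr1:58692446-58692695 (Flacc1) and chr10:80039660-80039909 (Polr2e). The sites themselves covered all 250 bases in Ankrd1 and Polr2e, 189 in Ccn1, 171 in Axl, 159 in Flacc1 and 59 in Ajuba.

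Every signal, fold and false discovery rate (FDR) of a site is the authors' own value. Signals are log2 group means of 3 libraries, so the spread between libraries of a site is not known here and no site was tested again. The smallest fold in the list is 1 log2 unit in either direction. The list comprises 9.36% of the 81358 sites that the deposited p-values and FDRs imply were tested. The members follow from that contrast, so their folds describe them and test nothing.

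Most rises at promoters lay close to the edge of the list. The median log2 fold was 1.09, 9 in 10 sites lay at or under 1.31, and 1058 of the 1421 rises (74.4%) were under 1.2. For 96 sites the fold, deposited with 2 decimals, was given as 1, the edge of the list. A log2 fold of at least 1.5 was reached by 35 promoter sites (2.46%), against 13.0% of all rises in the list. The median fold was 1.19 at introns and 1.2 between genes. The class most like the promoters was the 78 sites in 5′ UTRs, with a median of 1.085. Among the 6191 sites outside promoters, 315 (5.09%) were lower with doxycycline.

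Promoter sites had higher signal and were wider than the list as a whole. Their median log2 signal was 6.825 without and 7.95 with doxycycline, against 5.33 and 6.48 over the whole list. Their median width was 366.5 bp, against 248 bp. The 5′ UTR sites were higher and wider still, with medians of 7.305, 8.37 and 556.5 bp. Across the rises, the fold had a Spearman correlation of -0.22 with the signal without doxycycline and of -0.13 with width, while that of signal and width was 0.88. These describe 1421 sites measured in the same 6 libraries. The fold is the mean with doxycycline less this same signal without it, and the list cuts it at 1. A negative correlation can come from that construction, so whether weaker promoters responded more was not tested. In the plot of signal with against signal without doxycycline, the points follow a band just above the line of 1 log2 unit.

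**Figure D1:**
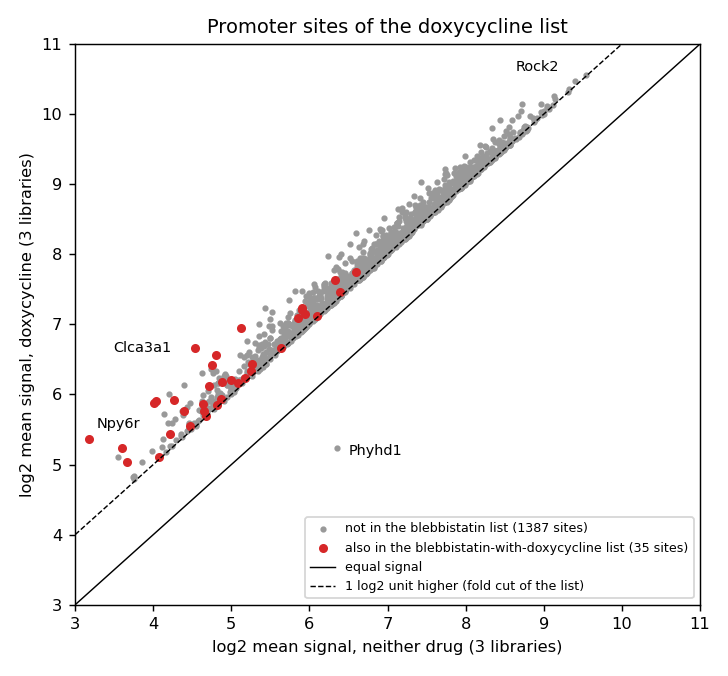
Each point is 1 promoter site, with the log2 mean signal of the 3 libraries given neither drug on the x axis and that of the 3 doxycycline libraries on the y axis. Red points are the 35 sites that are also in the list of blebbistatin with doxycycline. Most of them lie at low signal, and Phyhd1 is the 1 site below the line of equal signal.

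The centres lay close to the annotated starts. The choice by promoter-TSS annotation favours this, so the distances describe the sites and test nothing. The median distance was 45 bp upstream (-45), and 921 sites (64.8%) were within 100 bp. The sites belonged to 1341 genes, of which 1266 had 1 site, 69 had 2 and 6 had 3. The genes with 3 sites included Arrdc3, Hsp90ab1, Nr6a1 and Phyhipl. The sites of 1 gene could differ. Arrdc3, an arrestin-domain gene, had sites going from 8.72 to 10.14, from 6.40 to 8.01 and from 5.37 to 6.38. Hsp90ab1, a chaperone gene, had sites with folds of 1.02, 1.07 and 1.09. Of the sites, 1339 were annotated to protein-coding genes and 74 to non-coding RNA genes. They fell on 20 chromosomes, with the most on chromosome 11 (134 sites).

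The largest rise was at Npy6r, a neuropeptide Y receptor gene (chr18:44269990-44270136), from 3.18 to 5.37 (log2 fold 2.19, FDR 4.72e-06). Clca3a1, of the calcium-activated chloride channel accessory family (chr3:144761283-144761544), followed with 4.54 to 6.66 (log2 fold 2.12, FDR 3.44e-14). Flacc1 (chr1:58692537-58692791) went from 4.03 to 5.91. Ccl6, a chemokine gene (chr11:83592926-83593116), went from 4.01 to 5.88, and Rapgef1, an activator of Rap GTPases (chr2:29618979-29619288), from 5.12 to 6.95. All 5 had low signal without doxycycline. In the RNA experiment, which had no doxycycline, several of these genes had little RNA. The DMSO means were 1.90 normalised counts for Npy6r, 3.68 for Flacc1, 11.7 for Clca3a1, 67.3 for Ccl6 and 5593 for Rapgef1. Npy6r and Flacc1 had too little RNA to be tested.

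At the other end of the range of signal, Rock2 had the highest promoter signal with doxycycline. Its site (chr12:16893816-16895203, 1388 bp wide) went from 9.54 to 10.56. Rock2 encodes a kinase that Y27632 inhibits. The next were Fasn (fatty acid synthase, 9.40 to 10.47), Atp2b1 (a plasma membrane calcium pump, 9.32 to 10.36), Brpf1 (a chromatin reader, 9.31 to 10.32) and Ptpn14 (a phosphatase that binds Yap, 9.13 to 10.26). These 5 folds lay between 1.01 and 1.13. The smallest rises, given as 1 log2 unit, included Chchd7, Rbm39, Raph1, Mapk7 and Lrrc75a, with log2 signals of 7.78 to 8.80 without doxycycline. The single site that was lower belonged to Phyhd1, a gene of the phytanoyl-CoA dioxygenase family (chr2:30265749-30265949). It went from 6.35 to 5.23 (log2 fold -1.12, FDR 0.000202).

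Promoters of established Yap and Taz targets were among the sites. Of 25 such genes with enough RNA to be tested, 7 (28.0%) had a promoter site, against 1274 of all 14882 genes tested (8.56%). Ccn1 (chr3:145649703-145650174) went from 8.18 to 9.56, Thbs1 (chr2:118111844-118112246) from 7.98 to 9.26 and Ankrd1 (chr19:36119726-36120252) from 7.06 to 8.21. Nuak2, a kinase, went from 6.94 to 8.09, and Ajuba, a LIM protein that restrains the Hippo kinases, from 7.02 to 8.11. Axl, a receptor tyrosine kinase, went from 7.45 to 8.52. Folds of the 7 ranged from 1.07 (Axl) to 1.37 (Ccn1). The list of targets was chosen with earlier results of these data known, and its share supports nothing by itself.

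Wwtr1, the gene of Taz itself, had a promoter site (9.06 to 10.07), and it was the 1 of 17 genes of the Hippo core list that did. Of 29 genes for matrix structure only Col12a1, a fibril-associated collagen, had any, with sites going from 7.65 to 8.79 and from 5.39 to 6.50. Of 20 actin and SRF target genes only Cald1 had one (caldesmon, an actin-binding protein, 8.59 to 9.62). None of 24 genes for matrix degradation and none of 12 tendon fibroblast genes had a promoter site in the list. Over all genes tested the share was 8.56%, so few were to be found in lists this short, and no difference was tested. Outside promoters, the doxycycline list had sites at 9 genes of the Hippo core, 10 for matrix structure and 9 for matrix degradation. It also had such sites at 8 genes of the actin and SRF list and 2 of the tendon fibroblast list.

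Several families of basic cell functions were above the share over all genes. Ribosomal protein genes had a promoter site in 29 of 80 (36.2%), proteasome genes in 11 of 48 (22.9%), genes of chromatin enzymes in 12 of 59 (20.3%), mitochondrial ribosome genes in 14 of 77 (18.2%) and splicing genes in 11 of 64 (17.2%). Respiratory chain genes (8 of 103), zinc finger genes of the Zfp, Zkscan and Zscan symbols (25 of 364) and solute carriers (13 of 236) were under it. No histone gene of 18 had one. These shares were not tested, and the share over all genes is not limited to genes whose promoter held a tested chromatin site. A site between 2 opposite starts carries the name of 1 gene only, and which of the pair it belongs to is not measured.

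**Figure D2:**
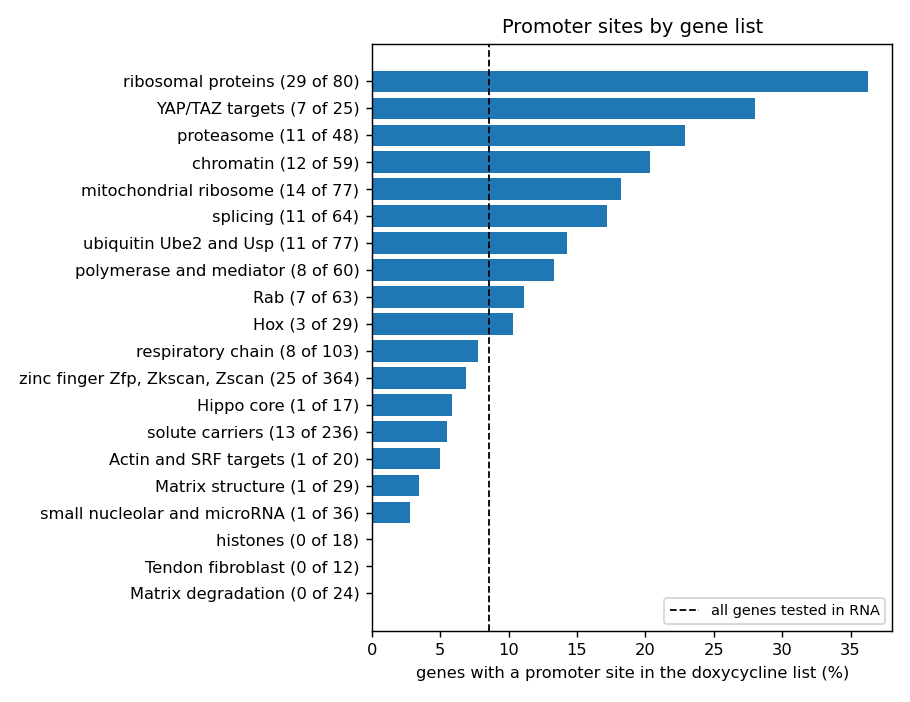
Bars give the percentage of genes in each list, among those tested in RNA, that have a promoter site in the doxycycline list. The dashed line is the share over all genes tested, 8.56%, and ribosomal protein genes stand highest at 36.2%.

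The sites named for each family are among its 3 largest folds, so they lie at the upper end by choice. The site of Polr2e, a subunit shared by the RNA polymerases, went from 6.76 to 8.35 (log2 fold 1.60). Psmc2, an ATPase of the proteasome cap, went from 5.91 to 7.47, Srsf4, a splicing factor, from 7.28 to 8.72 and Rpl3, a protein of the large ribosomal subunit, from 7.22 to 8.56. Among mitochondrial genes, Mrpl1, of the mitochondrial ribosome, went from 6.68 to 8.03, and Cox19, an assembly factor of cytochrome c oxidase, from 6.18 to 7.58. Kdm7a (7.34 to 8.83), Kmt2a, a histone methyltransferase (7.75 to 9.16), and Chd7, a chromatin remodeller (6.93 to 8.34), were those of the chromatin list. The median over the ribosomal protein sites was 1.08, just under the promoter median.

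The RefSeq table held a promoter for the genes of 1126 sites. Of these, 1004 sites overlapped the 300 bp window of their gene (250 bases before the start and 50 after), which gave 988 distinct windows. They were rich in CpG. The CpG ratio, the number of CpG over that expected from the C and G content, was at least 0.6 in 89.9% of the 988, in 35.8% of all 32851 promoters and in 64.6% of the 14229 promoters of genes tested in RNA. Median GC content was 62.7%, 52.7% and 60.3% in the same order. A start of another gene on the opposite strand lay within 1000 bp in 24.6%, 11.4% and 17.2%. Neither comparison set was limited to promoters that held a tested chromatin site. Whether these shares are particular to the doxycycline list was therefore not tested.

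Motif letters in the windows differed in the same order of groups. The ETS core CCGGAAG was in 25.5% of windows with a site, 8.86% of all and 15.7% of those of genes tested in RNA. GGGCGG was in 72.0%, 35.7% and 59.7%, and the YY1 letters AAGATGGCG in 4.76%, 1.40% and 2.66%. TGACGTCA (CRE) was in 4.15%, 1.79% and 2.90%, GCGCATGCG (NRF1) in 4.35%, 1.75% and 3.26%, and TCTCGCGAG (ZBTB33) in 2.63%, 0.676% and 1.29%. CCAAT went the other way, in 28.1%, 37.4% and 37.2%. The TEAD core was in 11.2%, 14.7% and 12.4%, AP-1 letters in 4.86%, 7.81% and 5.43%, and TATAAA in 7.89%, 13.6% and 7.53%. All were searched on both strands and counted over windows of the same length, which differ in base composition. The limit of the comparison sets given above holds for these shares too.

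**Figure D3:**
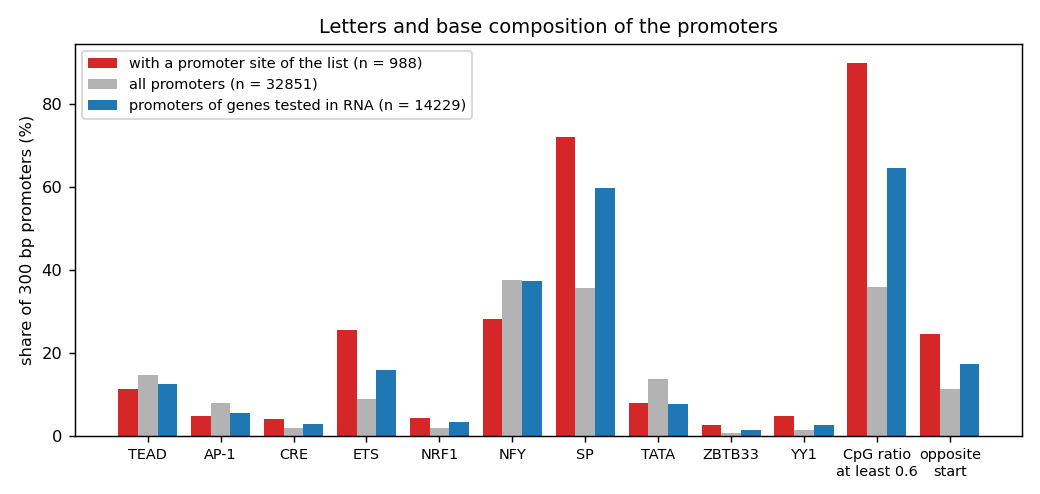
Bars give the percentage of 300 bp RefSeq promoters that hold each motif's letters on either strand, a CpG ratio of at least 0.6, or a start of another gene on the opposite strand within 1000 bp. Red is the 988 windows with a promoter site of the list, grey all 32851 and blue the 14229 of genes tested in RNA. The red bar is the tallest of the 3 for ETS, SP and the CpG ratio, among others, and the shortest for NFY, TEAD and AP-1.

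Among the targets of Yap and Taz, all 5 with an overlapping window, Ankrd1, Ccn1, Ajuba, Axl and Ptpn14, held the TEAD core, as the sequences above show for 4 of them. It was in 11.2% of all windows with a site and 12.4% of promoters of genes tested in RNA. The list of targets was chosen with earlier results of these data known, so this count describes it and tests nothing. The cores lay within the site in Ankrd1, Ccn1 and Ptpn14, and upstream of it in Ajuba and Axl. The windows of Wwtr1 and Cald1 also held it. Over the members, the median fold was 1.12 at the 115 sites whose window held a TEAD core and 1.09 at the 889 whose window did not.

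The list for blebbistatin with doxycycline against doxycycline alone uses the same doxycycline libraries as its reference. It holds 8.75% of the 72529 sites that its values imply were tested. Of the 1422 promoter sites, 35 (2.46%) overlapped a site of it, and all 35 were lower there, by log2 folds of -1.56 to -1. Of the sites outside promoters, 1981 of 6191 (32.0%) overlapped it. The share was 1 of 78 (1.28%) at 5′ UTR sites, 3 of 34 (8.82%) at non-coding and 9 of 81 (11.1%) at exon sites, so a low share was not particular to promoters. In that list itself, 113 of 6346 sites (1.78%) were promoter sites, all lower. A site absent from it may still have fallen by less than the fold cut. Since the 2 lists share 3 libraries, their opposite directions are not independent. At 1768 sites with the same coordinates in both, the doxycycline means were identical.

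The 35 sites had low signal. Their signal ranged from 3.18 to 6.6 without doxycycline (median 4.81), from 5.03 to 7.75 with it (median 6.18) and from 3.47 to 6.39 with doxycycline and blebbistatin (median 5.06). The difference between the levels with both drugs and with neither ranged from -0.29 to 0.99. These levels come from 2 separate lists, whose doxycycline means were identical at the 1768 sites with the same coordinates. The spread between libraries of a site is not known, so small differences give no direction. The site of Cacul1 (chr19:60581535-60581947) went from 6.6 to 7.75 with doxycycline, and the matching site was at 6.37 with both drugs. Gal3st2, a sulfotransferase gene, had 3.66, 5.03 and 3.47 in the same order, the largest fall of the 35. Anxa1 (annexin A1) had 6.39, 7.46 and 6.39. Npy6r (3.18, 5.37 and 4.17) stayed 0.99 above its level without drugs. Bdnf, a neurotrophin gene, had 4.72, 6.12 and 5.12. The 5 largest promoter folds of the doxycycline list, those of Npy6r, Clca3a1, Flacc1, Ccl6 and Rapgef1, were all among the 35. Clca3a1 had 4.54, 6.66 and 5.48, and Rapgef1 had 5.12, 6.95 and 5.53. S100a7a, an S100 calcium-binding protein gene, had 6.33, 7.63 and 6.39, and among the 35 its fall had the smallest FDR after that of Cacul1 (3.56e-12).

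**Figure D4:**
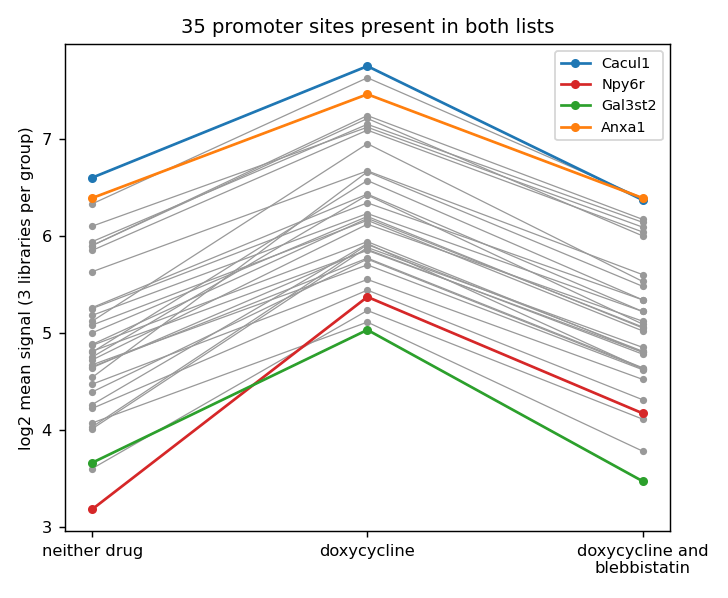
Each line is 1 of the 35 promoter sites found in both lists, with its log2 mean signal in 3 libraries given neither drug, 3 given doxycycline and 3 given doxycycline and blebbistatin. Every line rises and then falls, which the choice of sites fixes, and the levels at the right end lie between 3.47 and 6.39.

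The overlap differed with the strength and type of the promoter. With the rises split into 3 parts by signal without doxycycline, 32 of the 474 weakest, 3 of the 473 middle and none of the 474 strongest were in the list of blebbistatin with doxycycline. Among sites with a window, 11 of 102 with a CpG ratio under 0.6 (10.8%) and 4 of 902 with a higher ratio (0.443%) were in it. Of the 68 sites whose gene had too little RNA to be tested or was not matched, 11 (16.2%) were in it, against 24 of the other 1354 (1.77%). Of 63 sites more than 500 bp upstream of the start, 11 (17.5%) were. These splits overlap one another, and their parts in the count were not tested.

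Blebbistatin without doxycycline gave a list with 1.78% of 68975 sites, and 2 of the promoter sites overlapped it, at Cacul1 (log2 folds of -1.49 and -1.03 at 2 sites) and Fhl1 (-1.29), a LIM protein gene. This list shares the neither-drug libraries with the doxycycline list. In the separate ATAC-seq experiment, blebbistatin against DMSO gave 1.54% of 62846 sites, and 3 promoter sites overlapped that list, all lower in it. They were Ankrd1 (7.05 in DMSO and 5.61 with blebbistatin, log2 fold -1.44, FDR 0.0228), Gm5144 (-1.54) and Sprr2j-ps (-1.64). For Y27632, 0.335% of 61804 sites were in the list, and none overlapped a promoter site of the doxycycline list. Ankrd1 was thus the 1 target of Yap and Taz whose promoter was in both the doxycycline list and the blebbistatin ATAC-seq list, and the libraries of these lists are separate.

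RNA was measured in cells without doxycycline, so it shows how the genes behind the sites responded to blebbistatin and to Y27632, not to doxycycline. Reads in genes ranged from 23375386 to 37061737 per library. All 12 tendon fibroblast markers were present in DMSO at a mean of at least 10 normalised counts. None of 4 epithelial and none of 3 skeletal muscle markers reached that, while leukocyte markers were at 146 to 553 and 3 of 4 endothelial markers passed it (Tek 3110, Cdh5 67.0 and Kdr 14.6, with Pecam1 at 5.75). All 3 pericyte markers passed it (58.3 to 2004). So did 3 of 4 cartilage markers (up to 296) and 2 of 3 Schwann and nerve markers (up to 100). The part of other cell types in the results was not tested. Of the 1341 genes, 1337 were found in the RNA tables.

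With blebbistatin, genes with a promoter site fell more often than they rose. Of 1274 tested, 461 (36.2%) were lower and 241 (18.9%) higher at an adjusted p under 0.05 (limma on log2 of the normalised count plus 1, Benjamini-Hochberg over all genes). Over all 14882 genes, 53% were called, 26.1% higher and 26.9% lower. The median log2 fold change was -0.063 over the genes with a promoter site and 0.0021 over all genes. In bulk RNA, fewer cells of a type and less RNA per cell cannot be told apart. Genes with other sites of the list only, 2432 tested, were lower in 36.8% and higher in 27.3%. The share lower was thus close to that of genes with other sites, and the share higher was under both, without a test of these differences.

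The genes that fell most included targets of Yap and Taz. Thbs1 had 246916, 265062 and 251542 normalised counts with DMSO and 46605, 53697 and 54287 with blebbistatin. The groups were far apart (log2 fold change -2.31, SE 0.05, limma adjusted p = 1.15e-11). Ccn1, listed as Cyr61, had 9898, 10691 and 10942 with DMSO and 2347, 2666 and 2818 with blebbistatin (-2.01, SE 0.06, limma adjusted p = 7.30e-11). Nuak2 had 1638, 1720 and 1798 against 411, 424 and 474 (-1.98, SE 0.06). None of the 3 overlapped between groups, which was a condition for being among the genes named as falling most. Ajuba had 2464, 2469 and 2406 against 820, 965 and 884 (-1.46, SE 0.05). Ankrd1 had 214, 216 and 240 against 65.4, 90.4 and 108 (-1.36, SE 0.16, limma adjusted p = 1.42e-05). Ptpn14 (-0.55) and Axl (-0.49) also fell.

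All 7 targets with a promoter site were lower with blebbistatin. Over all genes tested, 26.9% were lower and 26.1% higher. The list of targets was chosen with earlier results of these data known, so these counts describe it and test nothing. Of the 18 tested targets without one, 12 were lower and 4 higher. Over the 25 the median log2 fold change was -0.72. Wwtr1 went the other way, from 4759 ± 53 to 5982 ± 157 normalised counts (SD, n = 3; log2 fold change 0.33, limma adjusted p = 2.52e-06). Col12a1 (-0.40) and Cald1 (-0.65) fell.

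Other genes with a promoter site that fell were Ptx3, a pattern recognition protein of the pentraxin family, and F2rl1, a protease-activated receptor. Ptx3 had 14844, 15047 and 14607 normalised counts with DMSO and 1928, 2273 and 1939 with blebbistatin (-2.86, SE 0.05). The promoter site of Ptx3 went from 7.18 to 8.21 with doxycycline. F2rl1 had 375, 427 and 411 against 76.9, 93.7 and 74.4 (-2.30, SE 0.11), and a promoter site that went from 4.76 to 6.31. Rock2, with the strongest promoter signal, had 21863, 22721 and 21906 against 6252, 6267 and 6648 (-1.79, SE 0.03, limma adjusted p = 2.61e-12). Among genes of the 35 sites found in both lists, 24 were tested, of which 10 (41.7%) were lower and 4 (16.7%) higher, against 36.2% and 18.9% of all genes with a promoter site. Bdnf fell, from 295, 311 and 347 to 96.6, 96.2 and 119 (-1.60, SE 0.11), while Tbc1d2b, another gene of the 35, rose by 1.27 (SE 0.03).

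The genes that rose most with blebbistatin were Abca1, Kdm7a, Hmox1, Hlf and Tbc1d2b. Abca1, the cholesterol exporter, had 1462, 1467 and 1172 normalised counts with DMSO and 5905, 6319 and 6004 with blebbistatin (2.16, SE 0.07, limma adjusted p = 1.91e-10). Kdm7a, a histone demethylase, rose by 1.34 (SE 0.05) and Hmox1, heme oxygenase, by 1.32 (SE 0.03). Hlf, a PAR bZIP factor, rose by 1.28 (SE 0.15) and Tbc1d2b, a Rab GTPase-activating protein, by 1.27 (SE 0.03). The groups did not overlap for any of these 5, which the rule that picked them required. Phyhd1, whose site was the 1 that fell with doxycycline, rose from 275 to 339 normalised counts (means of 3, log2 fold change 0.30, limma adjusted p = 0.00939).

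With Y27632, rises among the genes with a promoter site outnumbered falls. Of 1276 tested, 282 (22.1%) were higher and 219 (17.2%) lower. Over all 14833 genes 35.9% were called, 18.1% higher and 17.8% lower. Genes with other sites of the list only, 2421 tested, were higher in 21.1% and lower in 25.5%. The share higher was thus close to that of genes with other sites. The share lower was close to that over all genes, and these differences were not tested. Ribosomal protein genes made up 24 of the 282 rises. Y27632 and blebbistatin were compared with the same DMSO libraries. The median log2 fold change was 0.019 over the genes with a promoter site and 0.0040 over all genes.

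The genes that rose most with Y27632 were Spry4, Ereg, Fos, Junb and Hes1. Spry4, a feedback inhibitor of receptor tyrosine kinase signalling, had 318, 337 and 352 normalised counts with DMSO and 1245, 1064 and 1333 with Y27632 (1.85, SE 0.08, limma adjusted p = 3.33e-09). Ereg, a ligand of the EGF receptor, had 270, 226 and 270 against 910, 669 and 1049 (1.75, SE 0.13). Fos and Junb, which encode AP-1 subunits, rose by 1.70 (SE 0.10) and 1.65 (SE 0.08), and Hes1, a Notch target, by 1.65 (SE 0.08). Dusp14, a phosphatase, fell by 1.23 (SE 0.06) and Gadd45g, a stress gene, by 1.23 (SE 0.05). Sipa1l1 (-0.88), Loxl4, a lysyl oxidase (-0.87), and Lrrc75a (-0.79) also fell. The groups of these 10 genes did not overlap, which the rule that picked them required.

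With Y27632 the 7 targets lay between -0.64 and 0.18 on the log2 scale, and 6 of them were lower. Over all genes tested, 17.8% were lower with Y27632. Ajuba had 2562, 2563 and 2500 normalised counts with DMSO and 1665, 1609 and 1619 with Y27632 (-0.64, SE 0.03). Thbs1 (-0.41), Ankrd1 (-0.57), Axl (-0.28) and Ptpn14 (-0.25) also fell. Ccn1 had 10290, 11098 and 11371 against 9974, 9407 and 10548, which overlap (-0.13, SE 0.04, limma adjusted p = 0.0372). Nuak2 was higher (0.18, SE 0.06, limma adjusted p = 0.0426), and its groups overlapped too, with 1703, 1785 and 1868 against 2150, 1791 and 2124. Without 1 library, Ccn1 and Nuak2 each passed the threshold or missed it depending on which was left out, with an adjusted p of up to 0.162 for Ccn1 and 0.158 for Nuak2. Rock2 fell by 0.37 (SE 0.03).

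**Figure D5:**
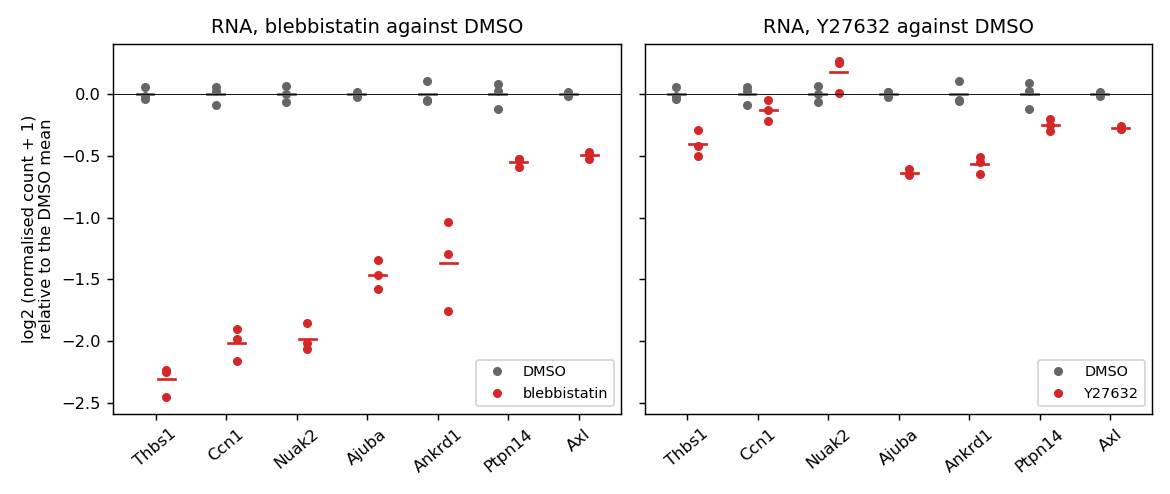
Points are single libraries (3 per group) of the 7 Yap and Taz target genes with a promoter site, as log2 of the normalised count plus 1 relative to the mean of DMSO, and short bars are means. Blebbistatin libraries lie below DMSO for all 7, and Y27632 libraries overlap DMSO for Ccn1 and Nuak2.

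Ribosomal protein genes rose with Y27632. Of the 29 with a promoter site, 24 were higher and 1 lower with Y27632 (median 0.12), against 61 higher and 1 lower of all 80 in the family. The rise was thus one of the whole family, with or without a site. Over all genes tested, 18.1% were higher and 17.8% lower with Y27632. With blebbistatin 1 was higher and 4 lower of 29, and 3 and 5 of the 80. Rpl3 had 22595, 22061 and 22367 normalised counts with DMSO and 24011, 24405 and 23880 with Y27632 (0.11, SE 0.03). Proteasome genes with a promoter site were lower with blebbistatin in 9 of 11 (none higher, median -0.18), and those of the whole family in 25 of 48 (5 higher). Over all genes tested, 26.9% were lower and 26.1% higher with blebbistatin. Psmc2 had 2838, 2666 and 2675 against 2486, 2267 and 2406 (-0.19, SE 0.04). Ribosomal protein genes have many near-identical pseudogene copies, and how reads shared between copies were counted is not given in the sources used here.

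Splitting the genes by their promoter letters, 48 of 104 with a TEAD core in the window (46.2%) were lower with blebbistatin and 14 higher, against 288 lower (34.6%) and 162 higher of 833 without it. With Y27632, 28 of 104 (26.9%) and 130 of 834 (15.6%) were lower. By CpG ratio, 32 of 89 genes under 0.6 (36.0%) and 304 of 850 above (35.8%) were lower with blebbistatin. With Y27632, 20 of 89 (22.5%) and 139 of 851 (16.3%) were lower, and 14.6% and 22.6% were higher. Genes of sites with a log2 fold of at least 1.5 were higher with blebbistatin in 9 and lower in 8 of 28. Over all genes tested, 26.9% were lower and 26.1% higher with blebbistatin, and 17.8% lower and 18.1% higher with Y27632. Genes with a TEAD core but no promoter site in the list were not counted. These counts describe the genes and were not tested against each other.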

How the data were processed

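The members are the rows annotated promoter-TSS in the authors' deposited doxycycline list. Members and gene lists were chosen with earlier results of these data known. Site signals are deposited log2 group means, with a deposited log2 fold, p-value and FDR per site. The submitters' processing notes name HISAT2, Picard, featureCounts, DESeq2, Bowtie2, SAMtools, MACS2, DiffBind and HOMER and build mm10, with no roles or versions. How sites were normalised between libraries is not given in the sources used here. The reference column of the doxycycline list is headed with the name of the group given blebbistatin alone. At 13 shared sites it differed by a mean of -0.128 (SD 0.0044) from the neither-drug means and by 1.12 (SD 0.184) from those of blebbistatin, and it was read as neither drug. The number of sites tested was computed from p-values and FDRs. Sites shared at least 1 bp to count as overlapping.

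RNA values are the authors' deposited normalised counts per gene and library (a signal per library, gene reads divided by a size factor), with each table normalised separately. Dividing by the value of 1 read gave whole reads in 100% of values (tolerance 0.05). limma 3.58.1 with a trend was fitted on log2(value + 1), with a mean of at least 10 and Benjamini-Hochberg adjustment over all genes, called under 0.05. The fit was tested on simulated data. Named RNA genes are list genes and the called members, with a mean of at least 100 and groups that do not overlap, that rose or fell most (5 each way). Named sites are the 5 at each end of fold and signal, the site that fell, shared sites and list genes. Bdnf, S100a7a, RNA of Rock2, Rpl3, Psmc2, Phyhd1 and the 5 genes with the largest site folds, and the genes with 3 sites were named after their values were seen. Alternatives were edgeR 4.0.16, DESeq2 1.42.0, the deposited adjusted p, other pseudocounts and filters, the replicate block and leaving out each library. The 3 replicates differed beyond sampling noise in every pair.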

Additional observations from a re-analysis of the deposited data

How the results depend on the processing

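The counts of promoter-site genes called in RNA stayed within 1.5 times of 702 (blebbistatin) and 501 (Y27632) under every alternative run, with ranges of 628 to 679 and 419 to 479 when 1 library was left out. edgeR on recovered reads called 705 and 508 of them (7924 and 5354 of all genes), and DESeq2 gave 602 and 426, the same counts as the deposited adjusted p. With the replicate block the counts were 682 and 452. Same-numbered libraries had correlations of -0.095 to 0.022 between their deviations from the group means. Those of differently numbered libraries were -0.051 to 0.056. These values gave no sign of pairing by number, but 3 libraries per group cannot exclude it. The number of promoter sites was 35 at an absolute log2 fold of at least 1.5 and 921 when a promoter was a distance of at most 100 bp. The median fold was 1.09 at an FDR under 0.01 and from the difference of the group means. The overlap with the list of blebbistatin with doxycycline was 35 when at least 0.5 of both sites had to be shared and when both lists were held to an FDR under 0.01. For named genes no direction changed, and 8 values lost and 1 gained their call, all for Ccn1, Nuak2 and Col12a1 with Y27632 when 1 library was left out. Without DMSO replicate 3, Col12a1 had an adjusted p of 0.0261 by limma. The deposited lists hold no values per library, so leaving out a library, depth and normalisation could not be examined for the sites.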
